A study of Mus musculus with 15 samples.

Results

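The cadherin superfamily and its catenins were followed in one class of cortical inhibitory neurons over postnatal development. Members were genes whose symbol names a cadherin (Cdh), a nonclustered or clustered protocadherin (Pcdh), a seven-pass cadherin (Celsr), a giant cadherin (Fat) or an alpha, beta or delta catenin (Ctnna, Ctnnb, Ctnnd). The symbol Pcdh11x was not matched, and that protocadherin is counted among the genes that act with cadherins. The rule used gene symbols only and no measured value. It found 68 genes among the 18193 genes that the array measured with a probe set of their own, and 38 of the 68 gave enough signal to be tested, among 9663 tested genes in all.

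Affymetrix mouse expression arrays were hybridized with RNA of neurons that carry GFP in mice of the G42 line. In this line a Gad1 promoter drives GFP in interneurons of the parvalbumin class, the fast-spiking cells that inhibit the soma of their targets, so a cell was chosen by its transgene and not by parvalbumin itself. All groups share the transgene and the tissue, the primary somatosensory cortex. The labels set them apart by age: postnatal day 7 (P7), P10, P15, P25 and P40, where the oldest mice were up to 45 days old. The number of cells picked differed between ages as well, at 23 to 45 at P15 and 52 to 85 at P7. Each age has 3 arrays from 3 animals, and each array holds the pooled RNA of 23 to 85 cells picked by hand from slices treated with protease. The labels give no strain, sex or litter.

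Cadherins are calcium-dependent adhesion proteins that pair across the gap between neighbouring cells. Classical cadherins bind beta-catenin and p120-type delta catenins inside the cell, and alpha catenins link that complex to actin, an arrangement found at adherens junctions and at synapses. Protocadherins signal through other partners, the clustered ones give single neurons a combinatorial surface identity, and the Fat and Celsr cadherins take part in tissue and axon polarity.

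Markers of the picked class and of several other classes were measured. Pvalb, the calcium-binding protein parvalbumin, read 14.28 ± 0.20 on the log2 scale at P40 and 3.62 ± 0.72 at P7 (SD, n = 3 each). Its mean was already 9.49 at P10. Gad1, Gad2, Slc32a1, Kcnc1 and Syt2, of the same list, were called higher at P40 too. Gad1 was already at 13.88 at P7 and Slc32a1 at 13.02. Lhx6 and Sox6 were called lower, at 11.28 and 10.64 at P40, against 12.11 and 11.56 at P7 (limma adjusted p = 0.00277 and 0.0133). Log2 values at or under 5 were taken as background. All 7 endothelial and mural markers on the array, all 5 fibroblast markers and all 4 oligodendrocyte precursor markers lay at or under 5 on every array, as did 4 of 6 excitatory markers. Of the excitatory list, Camk2a, a kinase of excitatory synapses, was called higher at P40, at 7.47 against 5.38 at P7 (limma adjusted p = 0.000175), while the log2 of the list's summed level ran between 10.77 and 11.26 at P40, against 10.08 to 11.42 at P7. Most of that sum was Cux2, which averaged 10.94 at P40 and 10.65 at P7 and was not called (limma adjusted p = 0.488). Of 7 markers of other interneurons, Vip and Htr3a lay at or under 5 on every array, and the summed level was 13.08 to 13.85 at P40, against 11.87 to 13.35 at P7. Among them Cck, the peptide cholecystokinin, was called higher at P40, at 11.96 against 8.41 at P7 (limma adjusted p = 7.95e-07), and Npy, neuropeptide Y, averaged 12.27 at P40 and 10.92 at P7, which was not called (limma adjusted p = 0.0629). Of the oligodendrocyte list, 2 of 5 markers lay at or under 5 on every array, and its sum ran between 8.91 and 9.91 at P40, against 10.73 to 11.07 at P7. At P25 that sum was 11.01 to 12.20, against 9.83 to 9.96 at P15, and Mobp, a myelin gene, averaged 7.47 at P25 and at most 3.14 at the other ages. Cnp, of the same list, was called lower at P40, at 9.10 against 10.75 at P7 (limma adjusted p = 0.00241). Mbp and Mobp were not called between these ages, and Mbp averaged 6.71 at P7. The same sum for microglia, with 4 of 6 markers at or under 5 on every array, was 6.04 to 6.22 at P40, against 6.56 to 7.53 at P7. Csf1r, of that list, was called lower at P40, at 3.28 against 5.11 at P7 (limma adjusted p = 0.00679). Of the astrocyte list, 1 of 6 markers lay at or under 5 on every array. The sums were highest at P25, at 7.55 to 10.08, but overlapped those of P10, at 5.71 to 9.38, and P40, at 5.52 to 8.35. They were 5.70 to 7.16 at P7 and 5.52 to 6.86 at P15. The mean of S100b was highest at P25, at 7.43, while those of Gja1, Aqp4 and Slc1a3 were highest at P10. S100b averaged 5.96 at P40, against 3.46 at P7, and was called (limma adjusted p = 0.023). The other tested astrocyte markers, Slc1a3, Gja1 and Aqp4, differed by -1.76, -0.57 and -0.11 and were not called. The part of all these markers in the differences below was not tested. P40 replicate 1 stood apart in Sst, a peptide of another interneuron class, which read 1.72 there and 9.20 or more on the other 14 arrays. The spiked control bioC was dim on P15 replicate 2, at 2.32, and P15 replicate 3, at 2.30, while its lowest value elsewhere was 9.28. The beta-actin 3′ minus 5′ difference, a sign of RNA length, was 3.93 ± 0.55 at P40 and 5.77 ± 0.98 at P7.

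Besides the 38 tested members, 30 members lay at background on nearly all arrays. In the type I group 2 of 5 genes were tested, in the type II group 6 of 11, and Cdh13 was tested, while the other Cdh genes on the array, Cdh16, Cdh17, Cdh23 and Cdh26, stayed between 2.11 and 3.03. Of the type I genes, Cdh1 and Cdh3, the epithelial and placental cadherins, and Cdh15, the muscle cadherin, stayed between 1.98 and 3.64 on all arrays. Of the type II genes, Cdh5, the cadherin of blood vessel walls, read at most 2.38, and Cdh18, Cdh19, Cdh20 and Cdh22 read at most 4.59. Celsr1, Fat2, Ctnna3, Pcdh1 and Pcdh12, a further endothelial gene, were at or under 3.67 throughout, and Pcdh20 had 1 value over 5, at 5.19. Of the clustered genes, 11 beta genes and Pcdhgc4 were at background with 2 values over 5, the higher at 5.81. In all, 3 of the values of these 30 genes exceeded 5.

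The comparison of P40 with P7 asked which of these adhesion genes differ between the youngest and the oldest interneurons. Of the tested members, 13 of 38 were called lower at P40 (34.2%, against 17.5% of all tested genes) and 2 were called higher (5.26%, against 27.5%). A call is an adjusted p under 0.05 in a limma fit of all 15 arrays, with Benjamini-Hochberg adjustment over the 9663 tested genes. Together 15 of 38 were called (39.5%), near the 45.0% of all tested genes. The counts depend on which dim genes enter. Fat4 and Pcdhb4 passed the limit through arrays of P7 and P10 alone. With the limit at 7 in place of 5 the count was 9 lower of 30, against 1484 of 8007 genes in all. Pcdhb4 did not pass that limit, but Fat4 did, again through arrays of P7 and P10 alone. The stricter limit thus does not remove this selection. The members' median difference was -0.55, against 0.18 for all tested genes, and 27 of 38 differences were negative, against 4195 of 9663. The 3 P40 arrays did not overlap the 3 P7 arrays for 20 members, and for 55.7% of all tested genes. The lower members were Cdh2 and Cdh7, the catenin Ctnnd2, Pcdh8, Pcdh15, Pcdh18 and Pcdh19, Pcdhb4, Pcdhb7 and Pcdhb20, and Fat1, Fat3 and Fat4. The higher ones were Ctnna1 and Celsr2. Since each array holds a pool of cells, fewer cells with a transcript and less of it per cell cannot be told apart.

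Several values move with this comparison. The deposited scaling leaves the median gene 0.18 higher at P40, and with quantile normalization or equal array medians that median was 0.01 or -0.04, the members' median -0.77 in both, and the share of higher genes among all called genes 51.4% or 49.4%, against 61.1% as deposited. All 15 member calls kept their direction and their side of the threshold under both scalings. Without P40 replicate 1 the count of lower members was 8 in place of 13, and that of all tested genes 1316 in place of 1694. The calls lost there were those of Fat1, Pcdh15, Pcdh19, Pcdhb4 and Pcdhb20. Cdh2, Celsr2, Ctnna1, Ctnnd2, Fat3, Fat4, Pcdh18 and Pcdhb7 were called under every alternative in which they were tested.

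**Figure D1:**
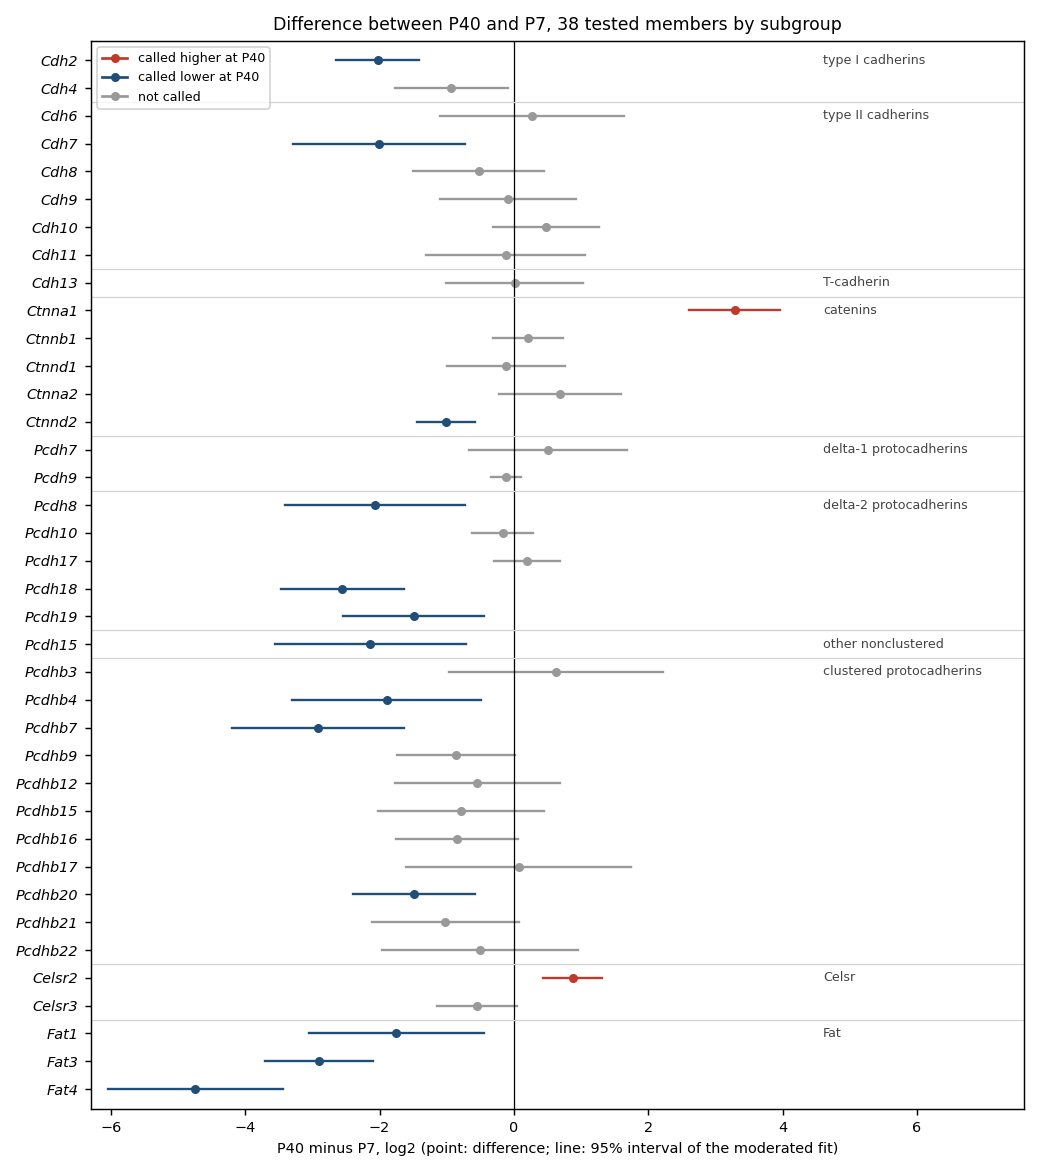
Difference between P40 and P7 on the log2 scale (x axis) for each of the 38 tested members (y axis), grouped by subgroup, with the 95% interval of the moderated fit. Members called higher at P40 are red, 2 in number, those called lower are blue, 13 in number, and the intervals of the 3 Fat cadherins and of 3 of 5 delta-2 protocadherins lie wholly left of 0.

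Of the classical cadherins, Cdh2 and Cdh7 fell. Cdh2, N-cadherin, the main classical cadherin of neuronal contacts, read 12.18, 12.16 and 12.01 at P7, 12.45, 11.86 and 11.85 at P10, 11.20, 11.37 and 11.46 at P15, 11.67, 10.83 and 10.22 at P25 and 9.81, 10.33 and 10.12 at P40. Its values were close to each other at P7 and P10 and every P40 array lay below every array of P7, P10 and P15. It was 4.08-fold lower at P40 (log2 difference -2.03, SE 0.29, limma adjusted p = 6.59e-05). Cdh7, a type II cadherin, read 10.82, 10.64 and 9.79 at P7, 9.94, 10.82 and 11.19 at P10, 11.05, 7.87 and 8.60 at P15, 9.86, 10.11 and 9.66 at P25 and 8.20, 8.84 and 8.19 at P40. The P15 arrays were spread widely, and the P40 arrays lay below all those of P7, P10 and P25. Its level was 4.02-fold lower at P40 than at P7 (log2 difference -2.01, SE 0.60, limma adjusted p = 0.0135). The call of Cdh7 was lost with the mean of its 3 probe sets (-1.47, limma adjusted p = 0.0948) and with the beta-actin difference as a covariate (-1.21, limma adjusted p = 0.244).

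The other classical cadherins were not called between P40 and P7. Cdh4, R-cadherin, differed by -0.93 near the background limit, with means of 4.74 ± 0.46 at P40 and 5.67 ± 0.08 at P7. It was called after quantile normalization (-1.05), after array medians were made equal (-1.15) and without P40 replicate 3 (-1.20). Among type II genes the differences were 0.27 for Cdh6, -0.53 for Cdh8, -0.08 for Cdh9, 0.48 for Cdh10 and -0.12 for Cdh11, with P40 and P7 arrays overlapping for all 5. Cdh13, T-cadherin, which is held in the membrane by a lipid anchor and has no catenin-binding tail, averaged 10.63 ± 1.07 at P40 and 10.62 ± 0.38 at P7. Its difference was 0.01, with a 95% interval between -1.02 and 1.03. Cdh8 was nevertheless called for a difference among the 5 ages (limma F test, adjusted p = 0.0138). Its arrays read 6.61, 7.99 and 8.20 at P7, 8.04, 8.68 and 8.10 at P10, 7.08, 8.50 and 7.21 at P15, 5.63, 6.49 and 6.34 at P25 and 6.93, 7.21 and 7.08 at P40, lowest at P25. The oligodendrocyte and astrocyte sums were highest at that age, though each overlapped the sums of another age. Their part was not tested. The call of Cdh8 was lost without P25 replicate 1.

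The catenins did not move together. Ctnna1, alpha E-catenin, which links cadherin complexes to actin, read 8.98, 8.49 and 9.57 at P7, 9.93, 10.62 and 9.87 at P10, 10.73, 11.74 and 10.88 at P15, 11.74, 12.16 and 11.90 at P25 and 12.04, 12.65 and 12.22 at P40. Its mean was higher at each later age, and no P40 array overlapped any array of P7, P10 or P15. At P40 it was 9.75-fold higher than at P7 (log2 difference 3.29, SE 0.32, limma adjusted p = 1.9e-06), the only rise over 1 log2 unit among the members. With the mean of all its probe sets, 2 of which lay at background, the difference was 1.59. Ctnnd2, the neural delta catenin, read 12.31, 12.45 and 12.72 at P7, 12.41, 12.47 and 12.06 at P10, 11.85, 12.27 and 12.25 at P15, 12.03, 11.63 and 11.56 at P25 and 11.19, 11.80 and 11.46 at P40. All P40 arrays lay below all P7 arrays, and the level was 2.02-fold lower (log2 difference -1.01, SE 0.20, limma adjusted p = 0.00104).

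Ctnnb1, beta-catenin, which joins cadherin tails to alpha catenins, averaged 12.88 ± 0.19 at P40 and 12.67 ± 0.39 at P7 (SD, n = 3 each). Its difference was 0.21, with a 95% interval between -0.32 and 0.74, so a change as large as that of Ctnna1 lies outside it. Ctnna2, alpha N-catenin, the neuronal relative of Ctnna1, averaged 10.19 ± 0.14 at P40 and 9.51 ± 1.06 at P7, a difference of 0.68 that was not called (limma adjusted p = 0.207). Without P7 replicate 1, the highest of its P7 arrays at 10.73, the difference was 1.29 and was called. Ctnnd1, p120-catenin, lay at the limit, at 4.65 ± 0.58 at P40 and 4.77 ± 0.60 at P7.

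Nonclustered protocadherins of the delta-2 group divided into 3 that fell and 2 that were not called. Pcdh18 read 7.13, 6.75 and 6.47 at P7, 5.13, 5.05 and 5.12 at P10, 5.26, 3.87 and 4.21 at P15, 4.46, 5.41 and 4.35 at P25 and 4.19, 3.73 and 4.76 at P40. It lay over 5 on all P7 and P10 arrays and at or under 5 on all P40 arrays, which gives a fall of at least 3.44-fold (log2 difference -2.56, SE 0.43, limma adjusted p = 2.45e-04). With values under 5 set to 5 the difference was -1.78 and with the beta-actin covariate -1.93, both still called. Pcdh19, an X-linked gene whose mutations in humans cause an epilepsy, read 11.44, 10.37 and 10.45 at P7, 10.44, 10.67 and 11.23 at P10, 9.45, 10.54 and 11.03 at P15, 8.53, 9.17 and 7.67 at P25 and 8.36, 9.97 and 9.46 at P40. Its lowest age was P25, and its P40 arrays lay below all P7 arrays. The P40 level was 2.81-fold lower than the P7 level (log2 difference -1.49, SE 0.49, limma adjusted p = 0.0231). That call was lost without P40 replicate 1 (-1.04), without P7 replicate 1 (-1.15) and with the number of cells picked as a covariate (-1.47), while the mean of its probe sets gave -2.21 and the beta-actin covariate -2.31, both called.

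Pcdh8, an activity-induced protocadherin of hippocampal neurons in rat, read 10.40, 11.29 and 10.23 at P7, 11.06, 10.77 and 10.48 at P10, 10.71, 8.44 and 10.50 at P15, 10.87, 9.96 and 9.07 at P25 and 8.34, 9.80 and 7.56 at P40. The P40 arrays were spread over more than 2 log2 units and all lay below the P7 arrays. The level was 4.2-fold lower at P40 (log2 difference -2.07, SE 0.63, limma adjusted p = 0.0146). The call of Pcdh8 was lost without P7 replicate 2 (-1.74) or P40 replicate 3 (-1.57) and with either covariate, and without P40 replicate 2 the difference was -2.68 and with array weights -2.70. Pcdh10 averaged 10.88 ± 0.17 at P40 and 11.04 ± 0.06 at P7, with a 95% interval of the difference between -0.62 and 0.29. Pcdh17 averaged 12.58 ± 0.23 at P40 and 12.38 ± 0.34 at P7, a difference of 0.20.

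In the delta-1 group neither tested member was called between P40 and P7. Pcdh7 differed by 0.50 and Pcdh9 by -0.12. Pcdh11x, a nonclustered protocadherin outside the member rule, differed by -0.60 and was not called (limma adjusted p = 0.514). Pcdh9 read 13.59, 13.54 and 13.58 at P7, 14.10, 13.89 and 13.91 at P10, 13.52, 13.54 and 13.64 at P15, 13.61, 13.42 and 13.63 at P25 and 13.47, 13.34 and 13.52 at P40, highest at P10 on all arrays, and was called for a difference among the 5 ages (limma F test, adjusted p = 0.0065). That call was lost with the mean of its 3 probe sets. Pcdh15, known as a component of the tip link of inner ear hair cells, read 5.28, 7.06 and 5.99 at P7, 7.29, 4.90 and 5.80 at P10, 4.06, 3.43 and 3.89 at P15, 4.31, 4.62 and 5.50 at P25 and 2.66, 4.88 and 4.37 at P40. It exceeded 5 on 6 of 15 arrays, 5 of them at P7 or P10, and was at or under 5 on all P40 arrays. The fall was at least 2.16-fold (log2 difference -2.14, SE 0.67, limma adjusted p = 0.0168). Its call was lost without P40 replicate 1 (-1.48), without P7 replicate 2 (-1.66), with either covariate (-1.72 and -1.65) and with values under 5 set to 5 (-1.11).

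Clustered protocadherins were represented by the beta cluster, since all 22 Pcdhb genes of the RefSeq annotation had a probe set of their own, against 1 of the alpha and gamma genes. The 22 genes lie in the order of their numbers along the chromosome. The 11 tested ones were Pcdhb3, Pcdhb4, Pcdhb7, Pcdhb9, Pcdhb12, Pcdhb15, Pcdhb16, Pcdhb17, Pcdhb20, Pcdhb21 and Pcdhb22, and they were spread over the cluster with genes at background between them. Of the 11, 3 were lower at P40 (27.3%, against 17.5% of all tested genes), none was higher (against 27.5%), and 9 of 11 differences were negative, with a median of -0.85. Pcdhb genes are near copies of each other, so a probe set can catch RNA of a neighbour.

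Pcdhb7 read 7.76, 8.38 and 6.95 at P7, 6.80, 6.19 and 6.44 at P10, 6.04, 6.75 and 4.90 at P15, 5.96, 5.06 and 4.68 at P25 and 3.41, 5.64 and 5.29 at P40. Its mean was lower at each later age, and its P40 arrays lay below all P7 and P10 arrays, with means of 4.78 ± 1.20 at P40 and 7.70 ± 0.71 at P7 (log2 difference -2.92, SE 0.60, limma adjusted p = 0.00121). Without P40 replicate 1, which read 3.41, the difference was -2.23 and still called. Pcdhb20 read 10.41, 10.50 and 9.78 at P7, 10.10, 9.59 and 9.95 at P10, 7.90, 9.79 and 8.76 at P15, 9.69, 9.39 and 8.88 at P25 and 8.11, 9.31 and 8.82 at P40, and was 2.8-fold lower at P40 (log2 difference -1.49, SE 0.42, limma adjusted p = 0.0104). The P40 arrays lay below the P7 arrays, and without P40 replicate 1 the difference of -1.17 was no longer called, while with the beta-actin covariate it was -2.14. Pcdhb4 read 6.33, 3.80 and 5.41 at P7, 5.86, 5.80 and 3.61 at P10, 4.15, 3.27 and 3.73 at P15, 4.57, 3.44 and 3.40 at P25 and 3.30, 3.30 and 3.25 at P40. It exceeded 5 on 4 arrays, all of P7 or P10, and was near background on the 3 P40 arrays (log2 difference -1.90, at least 1.13-fold, limma adjusted p = 0.0294). Its call was lost in 8 alternatives, among them leaving out P7 replicate 1 (-1.32), P7 replicate 3 (-1.78) or P40 replicate 1, 2 or 3 (-1.91, -1.90 and -1.88), and without P7 replicate 2 the difference was -2.58.

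A pair of beta genes had their lowest mean at P25 with the probe set used. A second probe set of Pcdhb21 was lowest at P15 instead, at 6.02, and averaged 6.41 at P25. Its P40 minus P7 difference was -0.31 and was not called. The other probe sets of Pcdhb16 did not pass the limit. Pcdhb21 read 7.74, 8.64 and 9.47 at P7, 8.63, 8.70 and 8.47 at P10, 5.90, 8.13 and 6.85 at P15, 5.44, 6.04 and 6.33 at P25 and 7.24, 7.66 and 7.88 at P40. Pcdhb16 read 9.36, 10.12 and 9.39 at P7, 10.03, 10.53 and 9.38 at P10, 9.33, 8.74 and 8.05 at P15, 7.91, 7.11 and 8.30 at P25 and 9.06, 8.09 and 9.17 at P40. Both were highest at P7 or P10 in the mean, and both were called for a difference among the 5 ages (limma F test, adjusted p = 0.00211 for Pcdhb21 and 0.00444 for Pcdhb16), though not between P40 and P7, where they differed by -1.02 and -0.85. Neither was called between P25 and P15 (limma adjusted p = 0.298 for Pcdhb21 and 0.249 for Pcdhb16) or between P40 and P25 (limma adjusted p = 0.171 and 0.376). The oligodendrocyte and astrocyte sums were highest at P25, though each overlapped the sums of another age, and their part was not tested. Without P7 replicate 1, Pcdhb21 was called between P40 and P7 too, at -1.46. The remaining beta genes were not called: Pcdhb3 differed by 0.63, Pcdhb9 by -0.86, Pcdhb12 by -0.55, Pcdhb15 by -0.78, Pcdhb17 by 0.07 and Pcdhb22 by -0.51. Pcdhb9 was called under both other scalings, at -1.07 and -1.08.

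Of the seven-pass cadherins, Celsr2 rose. Celsr2, which takes part in axon and dendrite growth, read 8.63, 8.40 and 8.59 at P7, 9.34, 9.24 and 9.32 at P10, 9.52, 9.12 and 9.45 at P15, 9.29, 9.64 and 9.66 at P25 and 9.52, 9.38 and 9.35 at P40. Every array of P10 and later lay above every P7 array, and the P40 level was 1.83-fold higher than the P7 level (log2 difference 0.87, SE 0.21, limma adjusted p = 0.00335). Celsr3, its relative needed for axon tracts of the forebrain, averaged 7.73 ± 0.02 at P40 and 8.29 ± 0.22 at P7, a difference of -0.55 that was not called (limma adjusted p = 0.123). It was called after either other scaling, at -0.77 in both.

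All 3 tested Fat cadherins fell. Fat4, which binds the cadherin Dchs1 on neighbouring cells, read 7.37, 9.40 and 8.02 at P7, 8.18, 7.42 and 5.55 at P10, 3.54, 3.27 and 3.25 at P15, 3.59, 4.55 and 3.70 at P25 and 4.0, 3.32 and 3.25 at P40. Every P7 and P10 array lay over 5 and every later array under it, so the gene passed the limit through its first 2 ages only. Its fall at P40 was at least 9.6-fold (log2 difference -4.74, SE 0.61, limma adjusted p = 2.47e-05). It was -3.26 with values under 5 set to 5, -2.86 with the mean of its probe sets and -3.85 with the beta-actin covariate, called in each. The other probe set in that mean averaged 2.74 at P7, at background, so it gives no second reading of the fall. Fat3, which shapes dendrites of retinal amacrine cells in mice, read 10.75, 11.52 and 11.82 at P7, 11.96, 11.84 and 10.37 at P10, 8.74, 9.03 and 8.85 at P15, 9.32, 8.90 and 8.99 at P25 and 8.83, 8.18 and 8.37 at P40. Its P15, P25 and P40 arrays all lay below all P7 and P10 arrays, and the P40 level was 7.48-fold lower than the P7 level (log2 difference -2.90, SE 0.38, limma adjusted p = 2.62e-05). Fat1, a relative best known from epithelia, read 8.64, 7.31 and 7.58 at P7, 5.94, 5.36 and 7.38 at P10, 6.35, 8.19 and 7.91 at P15, 8.68, 7.90 and 7.45 at P25 and 5.20, 6.67 and 6.40 at P40. Its means were lowest at P10 and P40, and it was 3.37-fold lower at P40 than at P7 (log2 difference -1.75, SE 0.61, limma adjusted p = 0.0299), and the call was lost without P40 replicate 1 (-1.31) or P7 replicate 1 (-1.35), while with the beta-actin difference as a covariate it was -3.08.

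**Figure D2:**
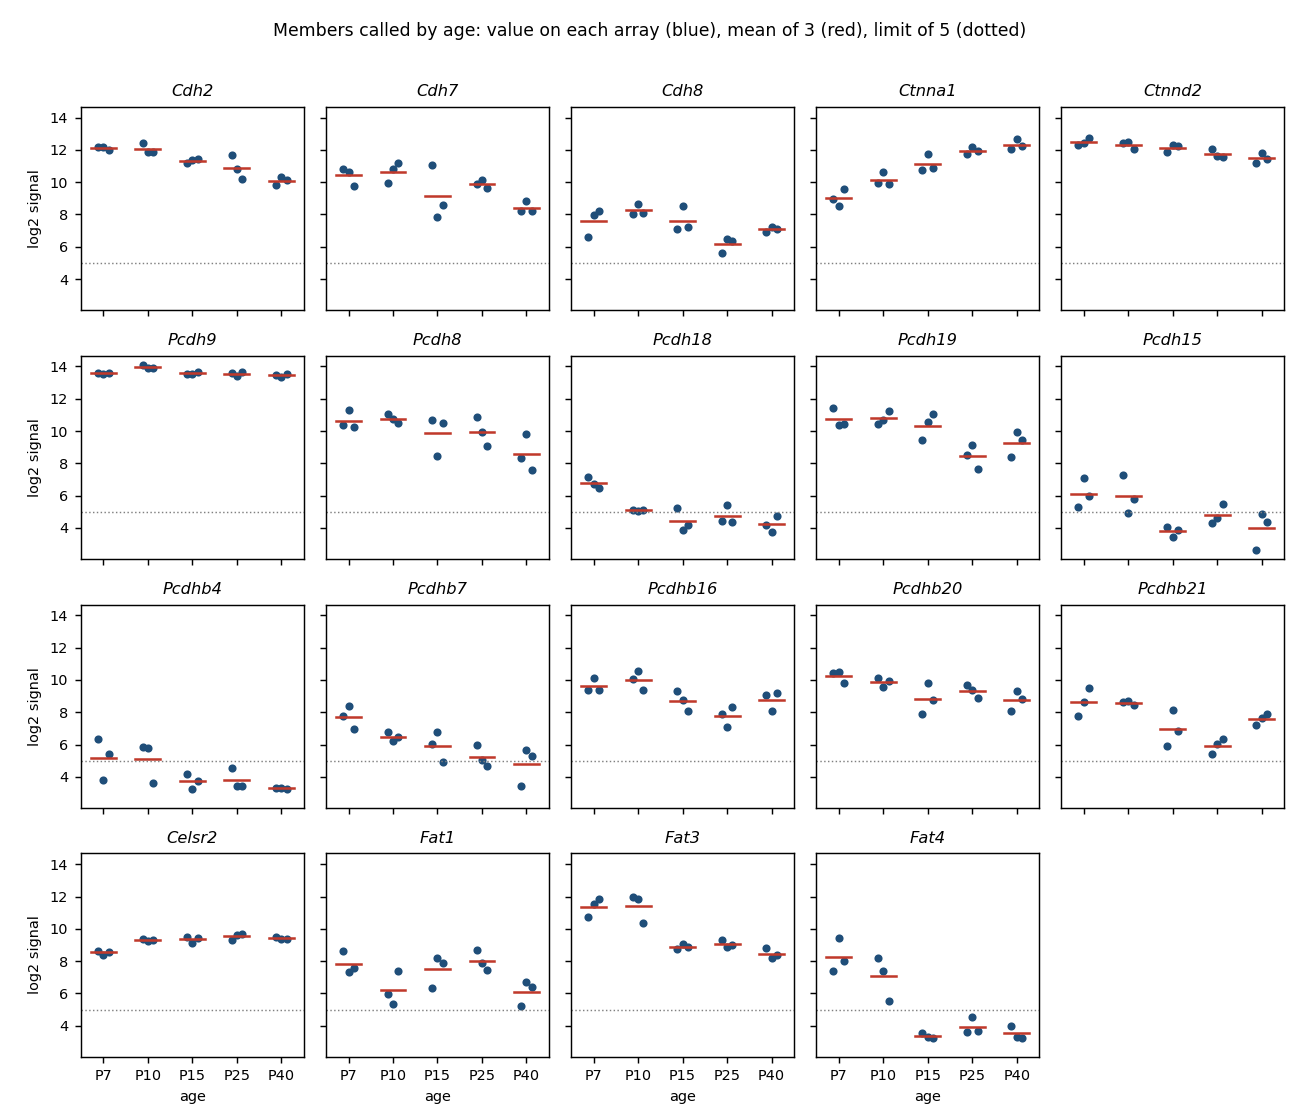
Log2 signal on each of 15 arrays (points; y axis) at 5 ages (x axis, 3 arrays each) for the 19 members called between P40 and P7 or for any difference among ages, with the mean of each age (red line) and the limit of 5 (dotted). Fat3 and Fat4 lie high on all 6 arrays of P7 and P10 and low on the 9 later ones, and Ctnna1 climbs from age to age.

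The falls of Fat3, Fat4 and Pcdh15 were called within a single age step. Between P15 and P10, 4 of 38 members were called, all lower, against 11.3% of all tested genes called, 8.55% higher and 2.75% lower. Fat3 differed by -2.52 (limma adjusted p = 0.00203), Fat4 by -3.69 (limma adjusted p = 0.00367), Pcdh15 by -2.21 (limma adjusted p = 0.0451) and Pcdh9 by -0.40 (limma adjusted p = 0.0275). Fat4 and Pcdh15 lay under 5 on the P15 arrays, so the size of their step rests on values at background: with values under 5 set to 5 it was -2.05 for Fat4, still called, and -1.03 for Pcdh15, which was not. With the mean of its probe sets, the other of which averaged 1.83 at P10, Fat4 differed by -1.87 and with the beta-actin covariate by -3.10, both called. Fewer cells were picked at P15, 23 to 45, than at P10, 47 to 72, and with the number of cells as a covariate no member was called in this step, Fat3 at -2.05, Fat4 at -3.04 and Pcdh15 at -1.10. Without P15 replicates 2 and 3, the arrays with dim spiked controls, none was called either, with similar sizes, -2.65 for Fat3 and -3.50 for Fat4 and 1 P15 array assumed to vary like the other groups. Without P10 replicate 3, 8 members were called, and without P10 replicate 1 or P15 replicate 3, 2 were. The counts under these alternatives stand without the shares of all tested genes, so they show no loss or gain particular to the members. Leaving out any 1 array kept the calls of Fat3 and Fat4, while that of Pcdh15 was lost without P10 replicate 1 (-1.56), without any 1 of the P15 arrays, and without P25 replicate 1, P25 replicate 2 or P40 replicate 3, and that of Pcdh9 without P10 replicate 1 or 2 or P15 replicate 2 or 3. Without P10 replicate 3 the difference of Fat4 was -4.44. The astrocyte sum was 5.71 to 9.38 at P10 and 5.52 to 6.86 at P15, and its part was not tested.

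The bases before the transcription start are shown for Fat3, Fat4 and Pcdh15, 3 of the 4 members called lower in this step. Pcdh9, called in it as well, is not shown. They are the 250 bases upstream of the RefSeq start in build GRCm38.p6, 5′ to 3′ on the gene's strand, at chr9:16502055-16502304 on the minus strand for Fat3, chr3:38886690-38886939 on the plus strand for Fat4 and chr10:73821617-73821866 on the plus strand for Pcdh15. Capitals mark a TATA box (TATAAA) or a CCAAT box (CCAAT, here read as ATTGG on the other strand).
Fat3: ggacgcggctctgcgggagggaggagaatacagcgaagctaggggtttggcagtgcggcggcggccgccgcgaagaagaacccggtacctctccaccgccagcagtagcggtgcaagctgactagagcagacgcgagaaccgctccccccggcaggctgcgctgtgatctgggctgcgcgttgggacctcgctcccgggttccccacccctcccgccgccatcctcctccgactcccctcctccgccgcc
Fat4: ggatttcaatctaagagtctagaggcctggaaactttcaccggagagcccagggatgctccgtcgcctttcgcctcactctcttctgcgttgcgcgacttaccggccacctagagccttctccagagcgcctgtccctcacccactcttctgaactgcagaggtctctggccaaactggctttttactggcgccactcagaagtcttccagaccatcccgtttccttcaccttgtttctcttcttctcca
Pcdh15: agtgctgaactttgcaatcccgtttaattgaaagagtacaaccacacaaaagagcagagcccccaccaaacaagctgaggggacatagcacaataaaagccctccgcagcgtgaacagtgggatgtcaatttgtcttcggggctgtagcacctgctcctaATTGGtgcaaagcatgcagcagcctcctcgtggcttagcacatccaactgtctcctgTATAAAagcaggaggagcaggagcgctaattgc
Pcdh15 holds a TATA box that begins 33 bases before the start and a CCAAT box that begins 90 bases before it. Neither motif, nor a GC box (GGGCGG) or the letters AACAAT, the core bound by SOX factors, is in the windows of Fat3 and Fat4, searched on both strands. Of 32851 RefSeq windows of this length, 12.4% hold TATAAA, 33.9% CCAAT, 32.7% GGGCGG and 9.42% AACAAT. The windows hold 27 CpG pairs for Fat3, 11 for Fat4 and 6 for Pcdh15, against a median of 6 over all windows and of 17 over the 27 windows of tested members, which belong to 22 genes. Of these 22 genes, 12 had a CCAAT box, 9 a GC box and 4 a TATA box. None of the motifs searched is in all 3 windows shown, which do not cover Pcdh9.

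The other steps held few calls. Between P10 and P7, 2 members were called, against 3.57% of all tested genes, 2.32% higher and 1.25% lower: Pcdh18 fell by 1.68 on the log2 scale (limma adjusted p = 0.0428) and Pcdh9 rose by 0.40 (limma adjusted p = 0.0488). Pcdh9 lost its call whichever of the 15 arrays was left out, and Pcdh18 without any 1 of the P7 or P10 arrays and without P15 replicate 3, P25 replicate 1 or 3, or P40 replicate 1 or 3, so that the count was 0 or 1. Celsr2, though not called in this step, stood 0.76 higher at P10 (limma adjusted p = 0.0595), 87.0% of its change by P40. Between P25 and P15 only Pcdh19 was called, against 4.79% of all tested genes, 2.35% higher and 2.44% lower, at 8.45 ± 0.75 at P25, against 10.34 ± 0.81 at P15 (log2 difference -1.89, limma adjusted p = 0.0416). The call of Pcdh19 was lost without P10 replicate 2, P15 replicate 2 or 3, P25 replicate 1 or 3, or P40 replicate 3, and without P15 replicates 2 and 3 together the difference was -0.99. Its other probe sets fell short of a call in this step, at -1.44 and -1.54 (limma adjusted p = 0.146 and 0.252), and the dimmest of them was called between P15 and P10, at -3.36 (limma adjusted p = 0.0141). The oligodendrocyte and astrocyte sums were higher at P25 than at P15, and their part was not tested. The count was 2 without P7 replicate 1 or P15 replicate 1. Between P40 and P25 limma called 0 of 38, against 0.652% of all tested genes, with 7 at an unadjusted p under 0.05. In that step Pcdhb21 had the largest difference upward, 1.66, and Fat1 the largest downward, -1.92 (limma adjusted p = 0.171 and 0.19). Over the whole course 18 of 38 members were called by the F test (47.4%), beside 47.0% of all tested genes, and 19 were called neither there nor between P40 and P7. That count of 18 ran from 14 to 26 over the alternatives. Pcdh8 lost its F test call in 17 of 27 settings, Fat1 in 9, Cdh7 in 8 and Pcdhb20 in 7. Pcdh15 lost it in 4 of 25, and Cdh8, Celsr2 and Pcdh9 in 1 each.

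**Figure D3:**
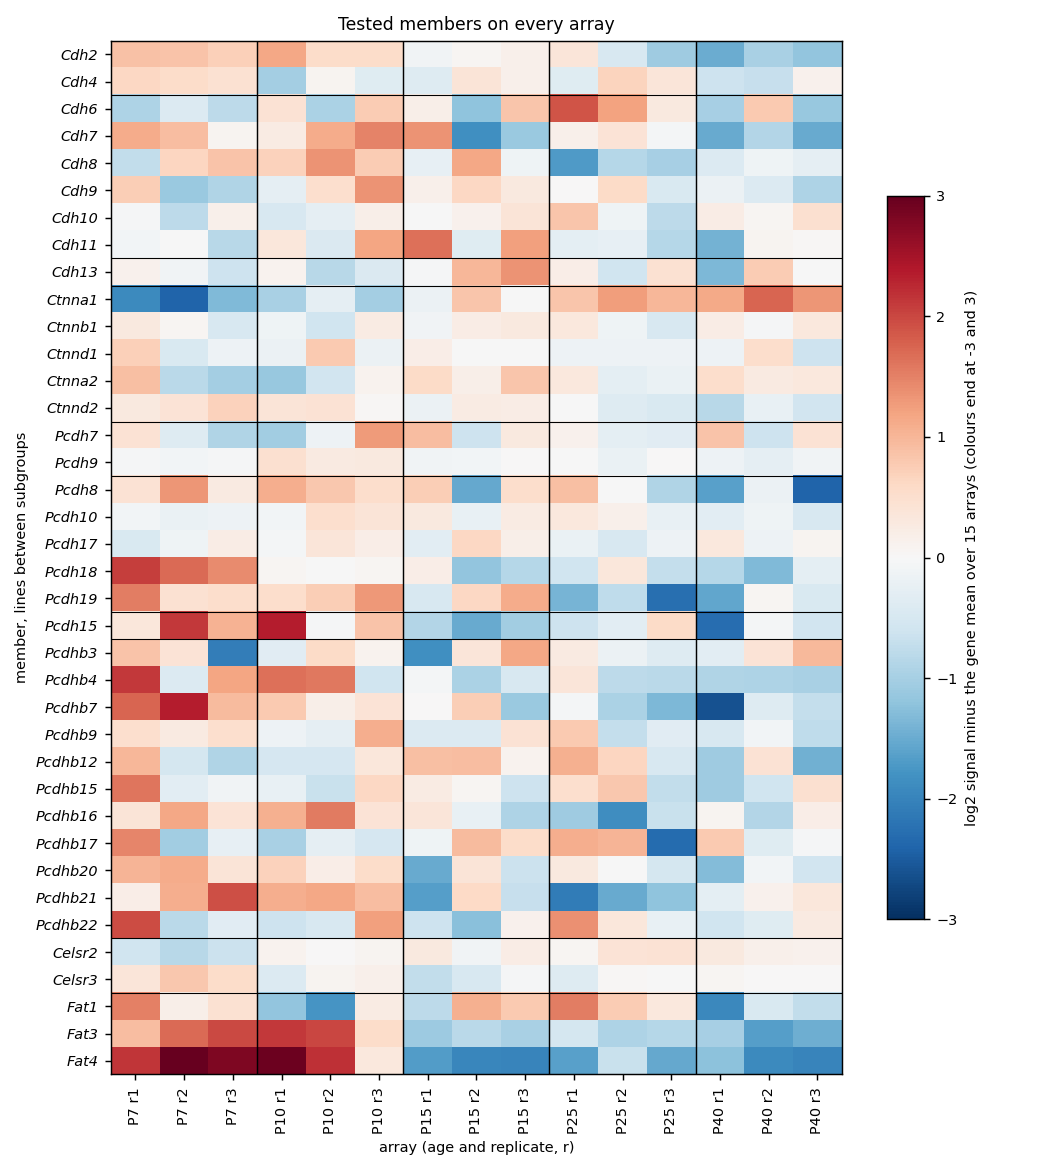
Log2 signal of each tested member (rows, grouped by subgroup) on each of 15 arrays (columns, by age and replicate), as the distance from the gene's own mean over the 15 arrays. Fat3, Fat4 and Pcdh18 are red on the P7 arrays and pale or blue from P15 on, and Ctnna1 runs the other way.

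The members' 123 single-gene probe sets gave a check within genes. Of these, 57 exceeded 5 on at least 3 arrays, and 15 members had more than 1 such probe set. Fat4, Pcdh15, Pcdh18 and Pcdhb4 were not among the 15, since their other probe sets did not pass. For 11 of the 15 all probe sets had the same sign of the P40 minus P7 difference. The exceptions were Cdh10, Cdh13, Pcdh9 and Pcdh10, none of them called with the probe set used. In a limma fit of the 15381 single-gene probe sets over the limit, added after seeing the data, the second probe set of Ctnna1 differed by 3.48 (adjusted p = 5.86e-05), beside 3.29 for the one used. Those of Pcdh19 differed by -1.86 and -3.27, both called, and the second one of Ctnnd2 by -0.85 (limma adjusted p = 0.00867). The second probe sets of Cdh2 at -1.76, Pcdh8 at -2.04 and Celsr2 at 0.83 had the same direction and were not called (limma adjusted p = 0.056, 0.07 and 0.0789). Neither were the other 2 of Cdh7, at -1.19 and -1.21 (limma adjusted p = 0.201 and 0.283). Cdh8 was called lower with its second probe set (-1.33, limma adjusted p = 0.0146) and Pcdh17 higher (1.31, limma adjusted p = 0.0399), where the ones used gave -0.53 and 0.20 and were not called. The probe sets used for Ctnna1, Pcdh8, Fat4, Ctnnd1 and Pcdhb15 are of a design that can match several transcripts.

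**Figure D4:**
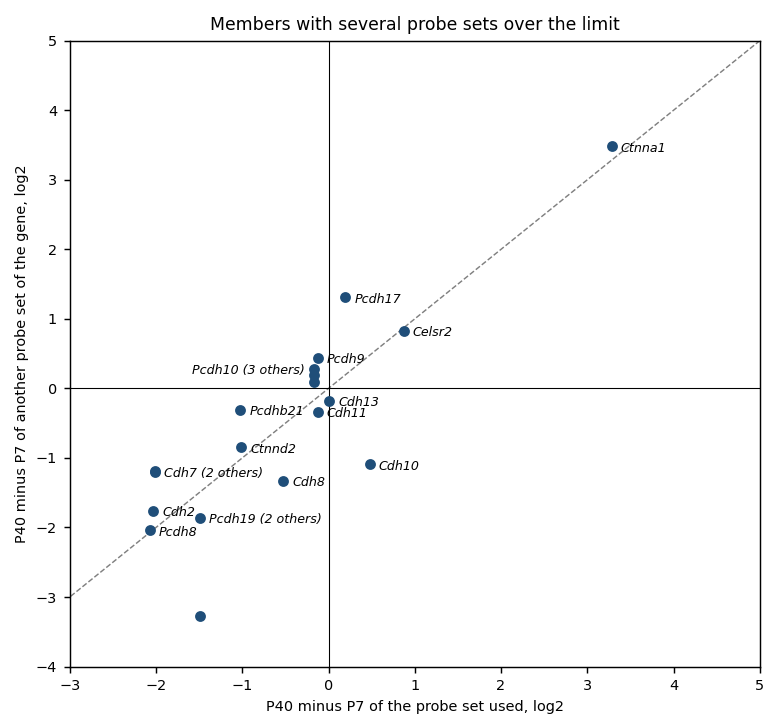
P40 minus P7 difference on the log2 scale of the probe set used for a member (x axis) against that of each other probe set of the same member over the limit (y axis), with the line of equality (dashed). The points of Ctnna1, Celsr2, Ctnnd2, Cdh2, Cdh7, Pcdh8 and Pcdh19 lie in the quadrants of equal sign.

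Genes that act with cadherins showed changes in both directions. Of 60 such genes, Pcdh11x among them, 54 were on the array with a probe set of their own and 42 were tested. Between P40 and P7, 10 were called higher (23.8%, against 27.5% of all tested genes) and 14 lower (33.3%, against 17.5%), 24 in all, with a median difference of -0.33 beside -0.55 for the members. With the beta-actin covariate 14 were called. The calls over all 9663 tested genes fell too, to 1364 higher and 1276 lower, against 2656 and 1694 without it. Among the higher ones, Pkp4, a plakophilin of the p120 family, differed by 1.73 (SE 0.16) and Clstn1, a calsyntenin, which is itself built with cadherin repeats, by 0.88 (SE 0.17). Clstn3, another calsyntenin, averaged 7.98 at P40 and 3.36 at P7, where it lay at background, and was at least 7.87-fold higher at P40. Adam9, a membrane protease, differed by 2.55 (SE 0.39). Among the lower ones, Prickle1, a planar polarity protein that acts with Celsr cadherins, differed by -2.19 (SE 0.28). Vangl2, another of these proteins, averaged 3.60 at P40, at background, and 6.86 at P7, at least 3.63-fold lower at P40. Wasf1, an actin regulator of the WAVE complex, which delta-2 protocadherins bind, differed by -1.51 (SE 0.26), and Nectin3, an adhesion protein that works beside cadherins, by -3.70 (SE 0.71). The limma adjusted p of these 8 ran between 1.15e-06 for Pkp4 and 0.000924 for Clstn1.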

How the data were processed

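RNA was measured in 15 pools of hand-picked interneurons, 3 animals at each of 5 ages. The authors deposited log2 values, 1 per probe set and array, made with GCRMA per the submitters' processing notes. No version or setting of it is known from those notes. GCRMA subtracts background and equalizes arrays, which compresses dim values, and 2 rounds of amplification, per the labels' protocols, shorten the RNA that probes see. Arrays have no depth, so their number limits the precision.

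Values were used as deposited. Of 45101 probe sets, 34945 had 1 gene in the platform annotation, 932 several, 9160 none here and 64 were controls. A gene with several single-gene probe sets was read from the brightest by its mean over 15 arrays, and was tested if this one exceeded 5 in at least 3 arrays. Levels of different probe sets were not compared. All 68 member symbols are current in RefSeq.

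limma 3.58.1 (R 4.3.3) fitted a means model over 5 ages, with a trended, robust prior (10 residual and a median of 4.89 prior degrees of freedom). Tests were two-sided, and Benjamini-Hochberg adjustment ran over 9663 genes within each contrast. The fit was tested on simulated data. A fold is given where both means exceed 5, and where all 3 arrays of an age lie at or under 5 it is a bound against 5; ± is the SD over 3 arrays. Array values are given for each member called between P40 and P7 or by the F test; of the genes that act with cadherins, the 4 most significant in each direction are named. The members and lists were chosen with earlier results of these data known. Of 28 alternatives, 15 leave out 1 array; the others change scaling, filter, floor, probe set rule, prior, weights, covariates, a block or the arrays fitted. Figures used Python 3.11.15, pandas 2.3.3 and matplotlib 3.10.9.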

Additional observations from a re-analysis of the deposited data

How the results depend on the processing

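No member called between P40 and P7 changed sign under any of the 28 alternatives. The 13 lower calls of 38 became 24 of 68 with no filter, beside 5594 of 18193 genes in all. There 10 of the added genes lay at background with differences under 0.3. The count ran from 8 to 13 when 1 array was left out, beside 1316 to 1743 of all 9663 tested genes. Counts in the age steps moved too, and are given without the shares of all genes under each alternative. With no filter P10 minus P7, P15 minus P10, P25 minus P15 and P40 minus P25 had 0, 2, 0 and 10 calls, against 2, 4, 1 and 0. Array weights gave 1, 11, 4 and 8. The beta-actin covariate gave 1, 2 and 0 in the first 3 steps. Between P40 and P7 it gave 14 partner genes in place of 24, beside 1364 higher and 1276 lower of all tested genes in place of 2656 and 1694. The number of cells gave 0, 0 and 0, and leaving out both dim-spike P15 arrays 1, 0 and 0. Equal array medians gave 0 for P10 minus P7 and 8 for P15 minus P10, the mean of probe sets 0 for P10 minus P7 and 2 for P25 minus P15, and a filter at 7 and a floor at 5 gave 1 each for P10 minus P7. Leaving out 1 array gave 0 to 1, 2 to 8, 0 to 2 and 0 to 1 in the 4 steps. The cause was not tested. The replicate block gave 0 for P10 minus P7 in place of 2 and changed the other counts by less than 1.5 times. Under the block no call between P40 and P7 was lost, Pcdh15 lost its call between P15 and P10 and Pcdh19 its call between P25 and P15 (limma adjusted p = 0.0726 and 0.0624), and Fat1 and Pcdh8 lost theirs in the F test. Replicate numbers did not pair the arrays: deviations of arrays with the same number correlated at -0.05 on average, between -0.40 and 0.27, and 2 of 15 arrays matched best with their own number. The limit of 5 leaves changes of dim members unmeasured.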

Other observations

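The alpha protocadherins, whose transcripts share their constant exons, could not be told apart, since 6 probe sets were annotated to 9 or 14 of them at once and none to a single one. The 3 annotated to 14 genes were high on all 15 arrays. The first averaged 12.17 ± 0.11 at P40 and 12.50 ± 0.44 at P7, and the second 10.15 ± 0.10 at P40 and 9.34 ± 0.89 at P7 (SD, n = 3 each, log2). At P25 the first averaged 12.69 and the second 9.90, so neither was lowest at that age. The third read 12.27 ± 0.76 at P7 and 12.80 ± 0.57 at P10, then 11.68 ± 0.21 in the P15 group, 9.99 ± 1.22 at P25 and 11.74 ± 0.66 at P40. Its mean was lowest at P25, as those of the probe sets used for Pcdhb16 and Pcdhb21 were. Of the 3 annotated to 9 genes, 2 never exceeded 5 and the other did so on 2 arrays. These differences were not tested.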
